A study of Mus musculus with 6 samples.

Results

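Mitochondrial ribosomal protein genes were taken as the rows of the deposited table whose symbol starts with Mrpl or Mrps followed by a digit, and 68 of 18312 genes met that rule. By the letter in the symbol, 41 belonged to the large subunit and 27 to the small subunit. The rule reads symbols only and uses no measured value. The study set out to find the mRNAs bound by Brf1 (gene Zfp36l1) and Brf2 (gene Zfp36l2), zinc finger proteins that bind AU-rich elements and promote mRNA decay. Its labels give 6 libraries from wild-type E14 cells, a mouse embryonic stem cell line on the 129/Ola background, grown with 15% serum and 1000 U/ml LIF. They fall into 3 groups of 2, which are total RNA taken before precipitation, RNA precipitated with an anti-Brf1/2 antibody, and RNA precipitated with rabbit IgG as the control. Precipitations were done on cytoplasmic extracts. The table analysed here holds 1 profile with no library name, so no comparison between groups was made and no value below measures binding. A low value cannot be told apart as fewer transcripts in the cells or less RNA recovered, because the profile may be total or precipitated RNA.

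Mitochondrial ribosomes translate the few proteins that mitochondrial DNA encodes, all of them parts of the oxidative phosphorylation complexes. Their RNAs come from mitochondrial DNA, whereas their proteins are encoded in the nucleus, made on cytosolic ribosomes and imported. Some of these proteins descend from bacterial ribosomal proteins, and others are found only in mitochondrial ribosomes. The small subunit binds the mRNA and decodes it, and the large subunit joins the amino acids and passes the new chain out through its exit tunnel to the inner membrane.

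The profile held 22625281 read counts. Levels are in FPKM, reads scaled to the effective length of the gene model and to the total count, and brackets give the lower and upper bounds in the authors' table. These bounds equal the value plus and minus 2 times the square root of the count, rescaled, and so cover counting error only. Of the 6 embryonic stem cell markers, all had at least 1 FPKM, from 40.6 for Esrrb to 605 for Pou5f1. Of 3 measured fibroblast markers, 1 did (Thy1 at 3.74, against 0.902 for Col1a1 and 0.543 for Col1a2), and of 3 measured primitive endoderm markers none did, with Sox17 at 0.0562, Gata4 at 0.451 and Foxa2 at 0.603. There are no replicates, and members are not replicates of a condition, so none of the differences below was tested.

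All 68 members were above 1 FPKM, against 56.0% of all genes in the table, and all 68 were above 5 FPKM. The lowest was Mrpl41 at 5.68 FPKM and the highest Mrps18c at 128 FPKM, a 22.5-fold range. The median was 28.7 FPKM, and the middle of the list lay between 20.04 and 44.9 FPKM (lower and upper quartiles). Ranked among all genes by FPKM, members ran from percentile 63.6 to percentile 97.7, with a median at percentile 87.9. Of the 68, 52 lay within a factor of 2 of the members' median, 11 lay above that range and 5 below it. Together they held 75819 counts, 0.335% of the total (Wilson 95% interval 0.333 to 0.337). Each member rested on 289 to 3115 counts, which made the bounds 3.58 to 11.8% of the value on either side. In the ranking of members, 6 of 67 neighbouring pairs had bounds that did not overlap, so the order is resolved only over larger steps.

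**Figure D1:**
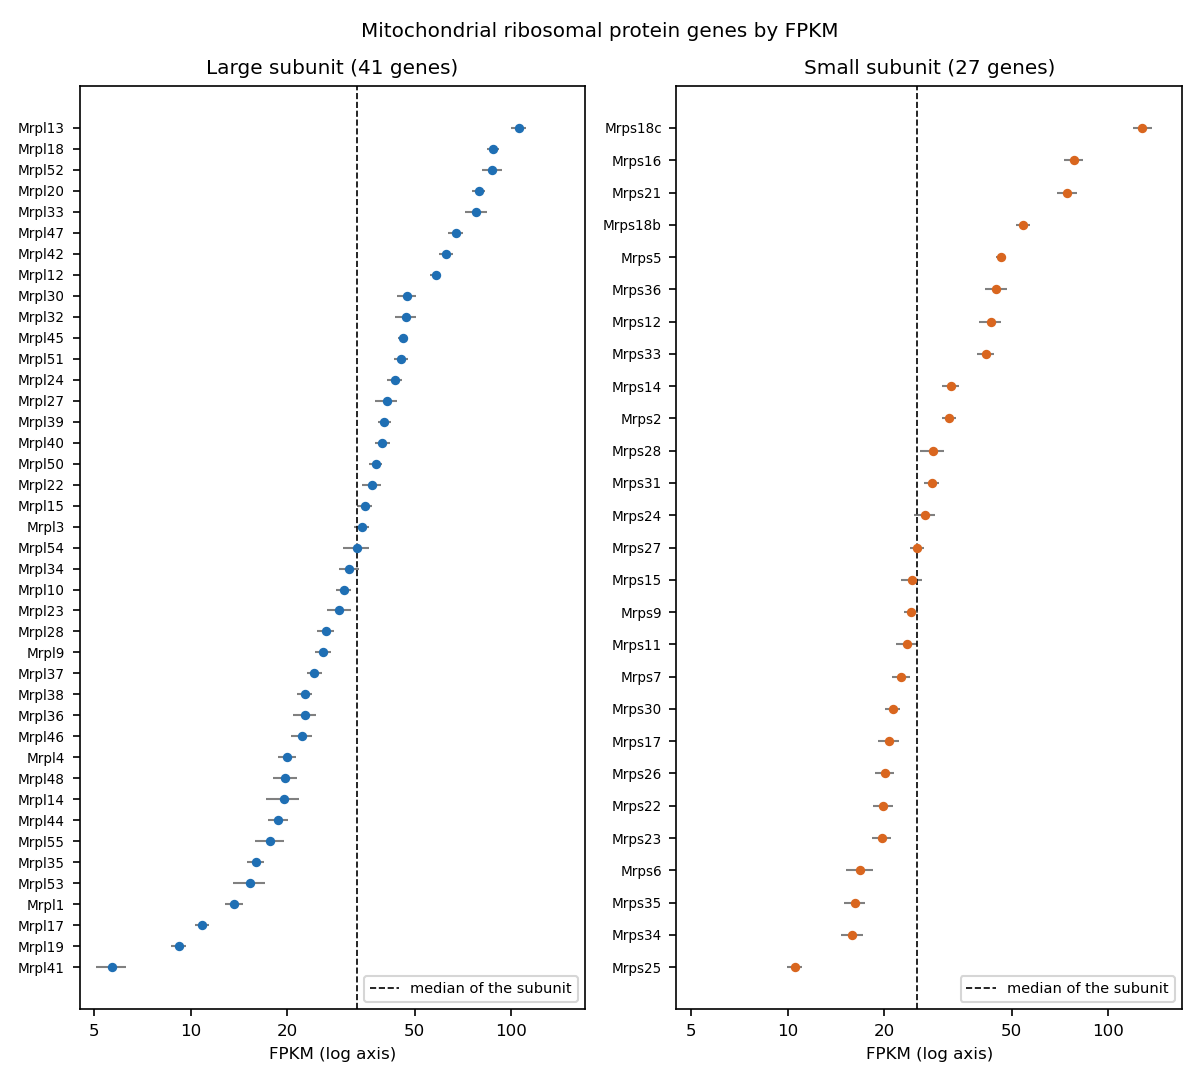
FPKM of each mitochondrial ribosomal protein gene on a log axis, with the 41 large-subunit genes on the left and the 27 small-subunit genes on the right. Points are the authors' values, grey lines their lower and upper bounds, and dashed lines the median of each subunit (32.9 and 25.4 FPKM). Mrps18c at 128 FPKM is the highest and Mrpl41 at 5.68 the lowest.

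The median level was 32.9 FPKM for large-subunit genes and 25.4 for small-subunit genes, a ratio of 1.30. The quartiles were 19.96 and 45.9 FPKM in the large subunit and 20.4 and 42.3 in the small subunit, so the subunits overlapped over nearly their whole range. When FPKM was recomputed on the model length, that is without the correction built into the effective length, the medians were 39.6 and 35.6 FPKM and the ratio was 1.11. The large subunit was therefore the higher on either length, but the gap between medians was smaller than the spread within either subunit. Large-subunit genes held 47775 counts and small-subunit genes 28044.

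In the large subunit the highest gene was Mrpl13 (uL13m in the nomenclature that marks bacterial counterparts), with 106 FPKM (100.1 to 111.2, 1440 counts). Mrpl18 had 87.7 FPKM (84.0 to 91.4, 2243 counts). Mrpl52, which has no bacterial counterpart, had 87.1 FPKM (81.0 to 93.3, 798 counts). The bounds of Mrpl18 and Mrpl52 overlap, and those of Mrpl13 lie above both. Mrpl20 had 79.2 FPKM and Mrpl33 77.8, and these are again not separated by their bounds. At the other end, Mrpl41, a mitochondria-specific protein, had 5.68 FPKM (5.08 to 6.27, 359 counts). Mrpl19 followed with 9.18 FPKM (8.67 to 9.68, 1336 counts), Mrpl17 with 10.8 (10.3 to 11.4, 1523 counts), Mrpl1 with 13.6 and Mrpl53 with 15.3. Mrpl41, Mrpl19, Mrpl17 and Mrpl1 are separated from one another by their bounds.

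In the small subunit Mrps18c, 1 of 3 paralogs related to bacterial S18, had 128 FPKM (119 to 137, 882 counts) and stood apart from all other members. Mrps16 had 78.1 FPKM (72.7 to 83.5) and Mrps21 had 74.6 (69.3 to 80.0), with overlapping bounds. Mrps18b, a second S18 paralog that sits at its own place in the subunit, had 54.3 FPKM (51.4 to 57.1), 1472 counts against 882 for Mrps18c. Its higher count on a longer effective length (1199 nt against 305 nt) gave the lower FPKM. On the model length (1053 nt against 502 nt) the gap was smaller, with 61.8 FPKM for Mrps18b and 77.7 for Mrps18c. The remaining paralog, Mrps18a, was not analysed here. Mrps5, the counterpart of a bacterial protein that affects decoding accuracy, had 46.3 FPKM (44.5 to 48.1, 2700 counts), the most counts in the subunit. The 5 lowest were Mrps25 at 10.5 FPKM (9.97 to 11.1, 1494 counts), Mrps34 at 15.9, Mrps35 at 16.2, Mrps6 at 16.9 and Mrps23 at 19.7. The bounds of Mrps34, Mrps35 and Mrps6 overlap, and those of Mrps25 lie below all of them.

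Proteins at known working parts of the ribosome were spread over the list. At the decoding site, Mrps12 had 43.0 FPKM (39.6 to 46.3). In the stalk that recruits translation factors, Mrpl12 had 58.1 FPKM (55.9 to 60.3, 2824 counts) and Mrpl10, which anchors it, had 30.1 (28.4 to 31.7, 1372 counts). Mrpl12 is present in several copies per ribosome, and its transcript was 1.93-fold above that of Mrpl10, or 3.65-fold on the model length. Among 5 genes listed around the exit tunnel, Mrpl45, which contacts the inner membrane, had 45.9 FPKM (44.2 to 47.5). Its 3115 counts were the most of any member. Of its neighbours there, Mrpl24 had 43.4 FPKM with bounds that overlap those of Mrpl45. Mrpl22 at 36.7 (34.2 to 39.2) and Mrpl23 at 29.1 (26.5 to 31.7) were below both. Mrpl44, which carries an RNase III-like fold, had 18.7 FPKM (17.4 to 20.1). The genes listed for the tunnel may not be all that lie there, so no level or range of the tunnel is read from them. Among 4 genes listed for the central protuberance, the crest of the large subunit, Mrpl40 had 39.6 FPKM, Mrpl38 22.7, Mrpl46 22.3 and Mrpl48 19.7. The last 3 lay below the large-subunit median of 32.9, but on the model length Mrpl38 was above it (42.9 against 39.6 FPKM). These 4 were chosen after their values were seen and may not be the full list, so no level of the protuberance is read from them.

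Members with a bacterial counterpart and members found only in mitochondrial ribosomes were alike in level within the large subunit, with medians of 32.6 FPKM (26 genes) and 32.9 FPKM (15 genes). Among genes named for the small subunit the medians were 28.4 FPKM (15 genes) and 20.1 FPKM (11 genes). That order turned on the model length, where the same groups had 33.2 and 39.2 FPKM. By the ratio of quartiles, the 11 genes classed as mitochondria-specific and named for the small subunit were the most closely spaced of these 4 groups on both lengths. Their upper quartiles were 1.49 and 1.34 times the lower ones. By the ratio of highest to lowest this did not hold on the model length, with 5.67 against 3.51 for the 15 small-subunit genes with a bacterial counterpart. The 11 genes include Mrps30, which is part of the large subunit, and Mrps18b, the S18 paralog that sits at its own place.

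Some symbols do not match the place of the protein. Mrps30 is part of the large subunit despite its name and had 21.3 FPKM (20.2 to 22.4). Mrps36 was later assigned to the oxoglutarate dehydrogenase complex and had 44.8 FPKM (41.3 to 48.2). Conversely, 7 proteins of the mitochondrial ribosome carry other symbols. In the small subunit these were Chchd1 at 109 FPKM (103 to 115), the pentatricopeptide repeat protein Ptcd3 at 81.4, Aurkaip1 at 25.9 and the GTP-binding protein Dap3 at 17.1. In the large subunit they were the peptidyl-tRNA hydrolase Ict1 at 27.9, Gadd45gip1 at 12.6 and Mrp63 at 8.59. Chchd1 and Ptcd3 were above all small-subunit members except Mrps18c, although the bounds of Ptcd3 (79.2 to 83.6) overlap those of Mrps16. Of the added large-subunit proteins, Mrp63 and Gadd45gip1 were among the low ones. With these 7 counted in, the ratio of large to small medians was 1.18.

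The evenness of the subunits was described by the SD of log2(FPKM + 1) over genes, which is 0 for a complex whose transcripts are all equal. The SD was 0.89 for the large subunit and 0.78 for the small subunit. The highest gene was 18.6-fold above the lowest in the large subunit and 12.2-fold in the small subunit. The upper quartile was 2.30 and 2.07 times the lower one. The Gini coefficient, which is 0 for equal levels, was 0.331 and 0.326. The coefficient of variation went the other way, 62.4% in the large subunit and 71.9% in the small subunit, where the single value of Mrps18c weighs most. On the model length every one of these measures was lower in the small subunit, with an SD of 0.62 against 0.93, a quartile ratio of 1.41 against 1.95, a Gini coefficient of 0.230 against 0.325 and a coefficient of variation of 44.9% against 62.4%. Of the 27 small-subunit genes, 24 were then within a factor of 2 of the members' median (39.3 FPKM), as were 30 of the 41 large-subunit genes. Among these measures the order of the 2 subunits in evenness thus depended on the length only for the coefficient of variation. On the effective length the Gini coefficients were close (0.331 and 0.326), and the order by SD also depended on the long models described below.

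The lowest members had long gene models. All 5 genes more than a factor of 2 below the median, namely Mrpl41, Mrpl19, Mrps25, Mrpl17 and Mrpl1, had models of 2423 to 6712 nt, among only 9 members with models over 2000 nt. The 11 genes above 57.5 FPKM, a factor of 2 above the median, had models of at most 959 nt. Short models also had low values, since the 30 members up to that length ran from 15.3 FPKM for Mrpl53 to 128, with a median of 43.2. The counts did not follow this order. Members with models over 2000 nt had a median of 1494 counts, against 866 for the other 59, while their median level was 13.6 FPKM against 30.1. Mrpl17 is an example, with 1523 counts spread over a 6712 nt model, of which about 7.23% is coding in the nearest annotated transcript. Mrps25 had 1494 counts on 6065 nt, with 8.45% coding. Mrpl41 differed from these, with only 359 counts on 2423 nt. The 1 annotated coding transcript used for it was 776 nt long, much shorter than that model. Whether its low level rests on the length of the model was not tested. Mrpl45 (45.9 FPKM), Mrpl50 (37.7) and Mrps2 (31.8) also had models over 2000 nt but were above the median of all members. Across the 68 genes, Spearman's rho between FPKM and model length was -0.44 (-0.42 in the large subunit, -0.35 in the small). Over the 10257 genes with at least 1 FPKM it was -0.19. Between count and model length rho was 0.54 over the members (0.47 in the large subunit, 0.71 in the small) and 0.24 over those 10257 genes. Model length is part of the FPKM itself, and which 3′ ends the cells used was not tested. Without the 9 long models the SD was 0.73 for the large subunit and 0.75 for the small subunit, so in the deposited FPKM the excess of the large subunit was no longer seen. With the model length these 59 genes gave 0.69 and 0.53.

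**Figure D2:**
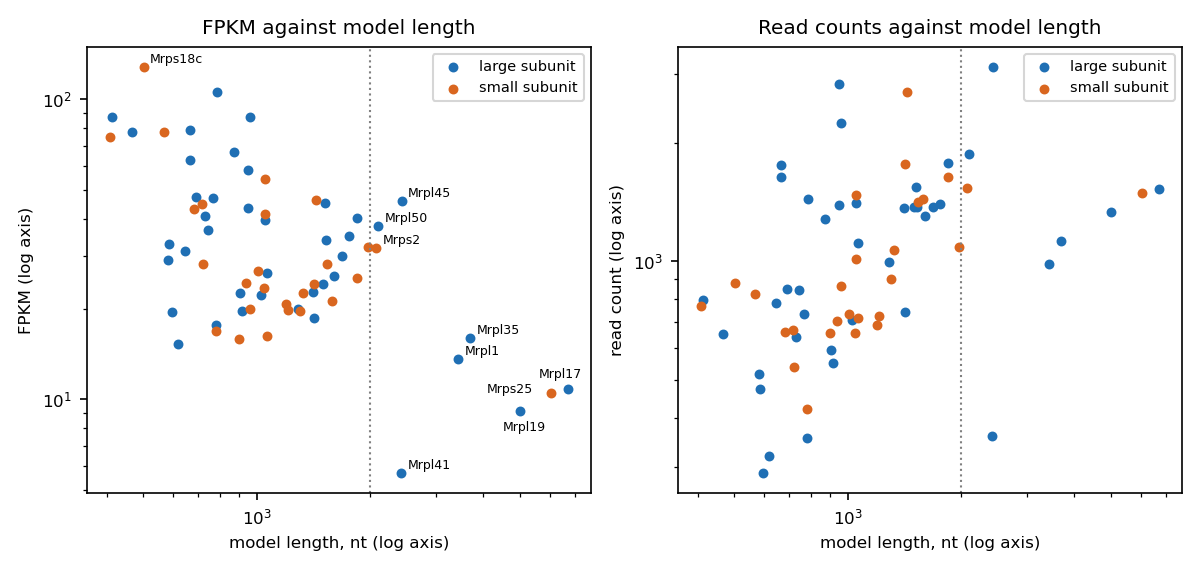
FPKM (left) and read count (right) of each member against the length of its gene model, all on log axes, with a dotted line at 2000 nt. Blue points are large-subunit and orange points small-subunit genes. The 9 genes right of the line have a median of 13.6 FPKM but 1494 counts, against 30.1 FPKM and 866 counts left of it.

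Which length was used moved single members more than it moved the medians. The effective length was 0.607 to 2.26 times the model length among members, with a median of 1.21 (1.32 over genes with at least 1 FPKM). With the model length, 46 members were above their bounds, 9 below and 13 within them. The 5 members that moved most beyond the table's median shift were Mrps18c, Mrps14, Mrpl13, Mrpl12 and Mrps9. Mrps18c went from 128 to 77.7 FPKM and Mrpl13 from 106 to 81.0, so both lost the first place in their subunit. Mrps14 went from 32.3 to 24.4 FPKM. Mrpl12 went from 58.1 to 132 FPKM and became the highest of all members, and Mrps9 went from 24.3 to 55.0. The highest small-subunit genes on that scale were Mrps21 at 83.6 FPKM and Mrps5 at 83.2. Mrpl41 was the lowest on both lengths (6.55 FPKM on the model length).

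**Figure D3:**
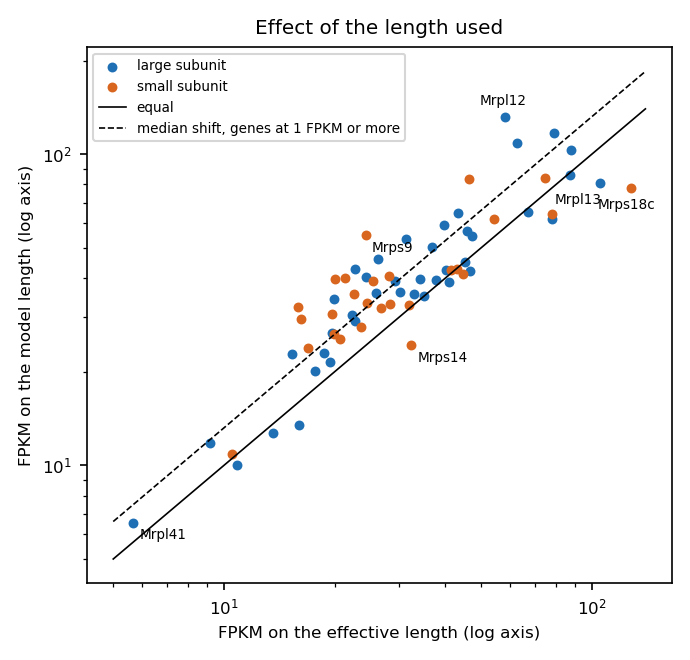
FPKM of each member as deposited (effective length) against FPKM recomputed on the model length, both on log axes. The solid line marks equal values and the dashed line the median shift of 1.32 over genes with at least 1 FPKM. Mrps18c and Mrpl13 fall below the solid line, and Mrpl12 and Mrps9 lie above the dashed one.

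The lists of other genes that serve mitochondrial gene expression had lower median FPKM than the members, although single genes in them were higher. Of 23 listed genes for assembly of the mitochondrial ribosome and modification of its RNA, 22 were measured, and all 22 were above 1 FPKM. Their median was 8.81 FPKM. The RNA-binding protein Grsf1 was highest at 39.1 FPKM and the rRNA methyltransferase Rnmtl1 lowest at 4.35. Of 15 listed translation factors and mRNA-binding proteins, 13 were measured, with a median of 13.8 FPKM. Among them the elongation factor Tufm had 60.8 FPKM, the elongation factor Gfm1 29.98 and the release factor Mtrf1l 2.62. The RNA-binding protein Slirp, listed in the table as 1810035L17Rik, stood apart at 182 FPKM (171 to 193) on a model of 419 nt. Of 9 listed genes for transcription and replication of mitochondrial DNA or breakdown of its RNA, 8 were measured, with a median of 19.4 FPKM. The ribonuclease Pnpt1 had 47.1 FPKM, the DNA-packaging factor Tfam 29.5, the RNA polymerase Polrmt 6.37 and the DNA polymerase subunit Polg2 4.06. In the order given, these lists had longer models, with medians of 1834, 2250 and 2576 nt against 1047 nt for members. Their median counts were 482.5, 858 and 1256, against 990 for members, so by counts the last list was the higher.

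The 2 other large gene lists set beside the members had higher levels. The 66 oxidative phosphorylation subunits had a median of 92.9 FPKM, from 15.2 for Ndufv3 to 692 for Atp5b. They were less even than the mitochondrial ribosomal proteins, with an SD of 1.27 and a quartile ratio of 3.43. This list pools the subunits of several complexes, so its spread can include differences between complexes. The 79 genes matched as cytosolic ribosomal proteins had a median of 820 FPKM and a quartile ratio of 1.70. Their SD of 1.57 rests on paralogs such as the muscle form Rpl3l (0.133 FPKM) and Rpl10l (6.26). Without these and Rpl39l and Rps27l, a choice made after their values were seen, the median was 866 FPKM, the quartile ratio 1.64 and the SD 0.71. The SD over all members of the mitochondrial ribosome was 0.84 and over the 10257 genes with at least 1 FPKM 1.75. With those paralogs left out, mitochondrial ribosomal protein genes thus lay between the 2 other lists in evenness, and below both in level. These lists differ in model length, with medians of 1047 nt for members, 665 nt for oxidative phosphorylation and 710 nt for cytosolic ribosomal proteins.

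**Figure D4:**
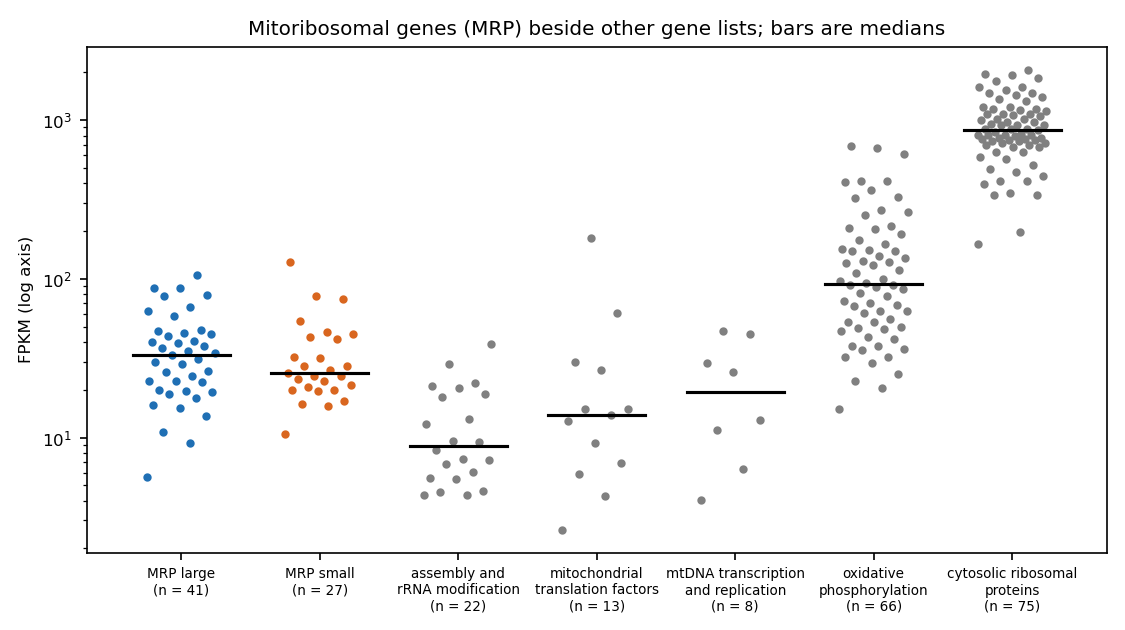
FPKM on a log axis of large- and small-subunit members and of 5 other gene lists, 1 point per gene, with bars at the medians. The medians of the members (32.9 and 25.4 FPKM) lie above those of assembly factors (8.81) and translation factors (13.8) and below those of oxidative phosphorylation subunits (92.9) and cytosolic ribosomal proteins without the 4 paralogs (866).

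The sites of Brf1 and Brf2 lie in the 3′ untranslated region of an mRNA, so the motif TATTTAT, the AU-rich core they recognise, was looked for in that region on the strand of the transcript. Of 67 members with an annotated region of at least 50 nt, 13 (19.4%) had it in the longest region, against 3108 of 10061 genes with at least 1 FPKM (30.9%). The members' regions were shorter, with a median of 387 nt against 1196 nt, and the motif was found 0.204 times per kb against 0.290. In the large subunit 10 of 41 genes had the motif, and in the small subunit 3 of 26. In the shortest annotated region the gap to the background was smaller, with 11 of 67 members (16.4%) against 19.6%. There the large subunit lay above the background, with 9 of 41 genes (22.0%) and 2 of 26 in the small subunit. These regions had a median of 222 nt in the large subunit and 233.5 nt in the small, against 500 nt in the background. The motif was found 0.378 times per kb in the large subunit and 0.119 in the small, against 0.298. The members with the motif in the longest region ran from 10.8 FPKM for Mrpl17 to 79.2 FPKM for Mrpl20. Their median of 34.1 FPKM compares with 28.3 FPKM for the 54 without it there. These 54 include Mrpl1 at 13.6 FPKM, which had 2 sites in its shortest region and none in its longest. Only 46 members have an annotated transcript within 10% of the length of their model. Of these, 4 (8.70%) hold the motif in it, against 27.6% of 8423 genes. The regions compared there had a median of 264.5 nt in members and 946 nt in those genes. The 4 matched members with the motif are those for which it lies in a transcript like the one counted. Their 5 sites are shown 5′ to 3′ from GENCODE M21 with the motif in capitals, because for these the annotated transcript matches the counted model in length. Sites in the other 9 members are not shown, since none of these had an annotated transcript within 10% of its model length. The fall from 13 members to 4 comes from leaving these 9 out.
Mrpl33: cagagaccacaTATTTATctccctggatg
Mrpl45: tttttgagatgTATTTATtttatgtgtgt
Mrpl35: tgggttctttgTATTTATgacagttatta
Mrpl17, first site: agcatggagctTATTTATatccactaaat
Mrpl17, second site: attcttagttaTATTTATtcctatgtctt
All 4 belong to the large subunit, and they had 77.8 (Mrpl33), 45.9 (Mrpl45), 16.0 (Mrpl35) and 10.8 FPKM (Mrpl17). The site of Mrpl45 runs on into further T-rich sequence, and that of Mrpl33 is followed by cytosines. A match says only that these letters are present, and whether Brf1 or Brf2 bound any of these transcripts was not tested.

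Promoters were compared in RefSeq windows of 300 bases, from 250 before to 50 after each gene's start, on GRCm38.p6, which were found for 59 members. Each motif was searched on both strands. CCGGAAG, the core recognised by ETS factors such as GABP, was in a window of 21 of the 59 genes (35.6%). The share was 21.3% of 8463 genes with at least 1 FPKM and 9.93% of all 27025 genes with a window. GCATGCGC, part of the site of NRF1, a factor known for regulating nuclear genes for mitochondria, was in 8 (13.6% against 6.51%, and 3.05% of all genes with a window). AAGATGGCG, the YY1 motif, was in 7 (11.9% against 3.90%, and 1.64%), and the E-box CACGTG in 4 (6.78% against 12.1%, and 8.09%). The NRF1 motif was in 7 of 35 large-subunit and 1 of 24 small-subunit genes, and the ETS motif in 11 and 10. The cytosolic ribosomal protein genes had the ETS motif in 42.9% and the NRF1 motif in 4.76% of 63 genes, and oxidative phosphorylation genes in 14 and 9 of 56. Members with the ETS motif had a median of 40.9 FPKM (10.8 to 128), those without it 26.5 FPKM (5.68 to 79.2), and on the model length 42.6 and 37.6. The levels overlapped over most of their range.

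The promoters of 3 members that differ in level but share the ETS motif are shown as the 150 bases before the start, 5′ to 3′ on the strand of the gene, with the motif in capitals on either strand. They lie at chr14:54426759-54426908 on the plus strand (Mrpl52), chr8:71464776-71464925 on the plus strand (Mrpl34) and chr9:98601680-98601829 on the minus strand (Mrps22), on GRCm38.p6.
Mrpl52: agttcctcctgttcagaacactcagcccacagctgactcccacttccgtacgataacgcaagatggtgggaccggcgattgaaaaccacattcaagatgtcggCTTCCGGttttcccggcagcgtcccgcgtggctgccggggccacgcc
Mrpl34: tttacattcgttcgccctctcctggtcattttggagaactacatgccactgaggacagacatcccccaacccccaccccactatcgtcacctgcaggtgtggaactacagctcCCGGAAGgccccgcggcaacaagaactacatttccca
Mrps22: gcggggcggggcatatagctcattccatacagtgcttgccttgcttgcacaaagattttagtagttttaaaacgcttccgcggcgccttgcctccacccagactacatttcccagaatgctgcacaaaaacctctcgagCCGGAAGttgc
These genes had 87.1 (Mrpl52), 31.2 (Mrpl34) and 19.9 FPKM (Mrps22). They were picked for sharing the motif while differing in level, so nothing about the motif is read from them. In Mrpl52 the motif reads on the opposite strand from the other two.

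Members were often placed head to head with another coding gene. In GENCODE M21, 16 of 68 members (23.5%) started within 1000 bases of a coding gene that runs the other way, against 11.7% of genes with at least 1 FPKM. Starts are the outermost annotated ones, and pairs that overlap by more than 100 bases were not counted. In 14 of the 16 pairs the member had the higher FPKM, with a median of 38.7 FPKM against 8.004 for the neighbour. Over the 1129 genes with at least 1 FPKM and a measured neighbour of this kind, 56.9% were the higher of the pair. Members have high levels to begin with, at a median percentile of 87.9, so the count of 14 is not read as a property of the pairs. Mrps18c (128 FPKM) starts 29 bases from Helq, a DNA helicase, which had 6.02 FPKM. Mrps12 (43.0 FPKM) starts 172 bases from Sars2, which charges mitochondrial serine tRNA and had 5.16 FPKM. The exceptions were Mrpl32 (46.8 FPKM) beside the proteasome subunit Psma2 (243 FPKM), and Mrpl36 (22.7 FPKM) beside the complex I subunit Ndufs6 (89.4 FPKM). Mrpl46 and Mrps11, a large- and a small-subunit gene on opposite strands, overlap by more than that limit and are not among the 16. They had 22.3 FPKM (20.6 to 23.9) and 23.6 FPKM (21.7 to 25.4), which are not separated by their bounds. Exons of 20 members overlap those of another coding gene, 17 of them on the opposite strand. Strand handling is not given in the sources used here, so reads of such pairs may not be told apart. Without these 20 the medians were 34.5 FPKM in the large and 30.1 in the small subunit.

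**Figure D5:**
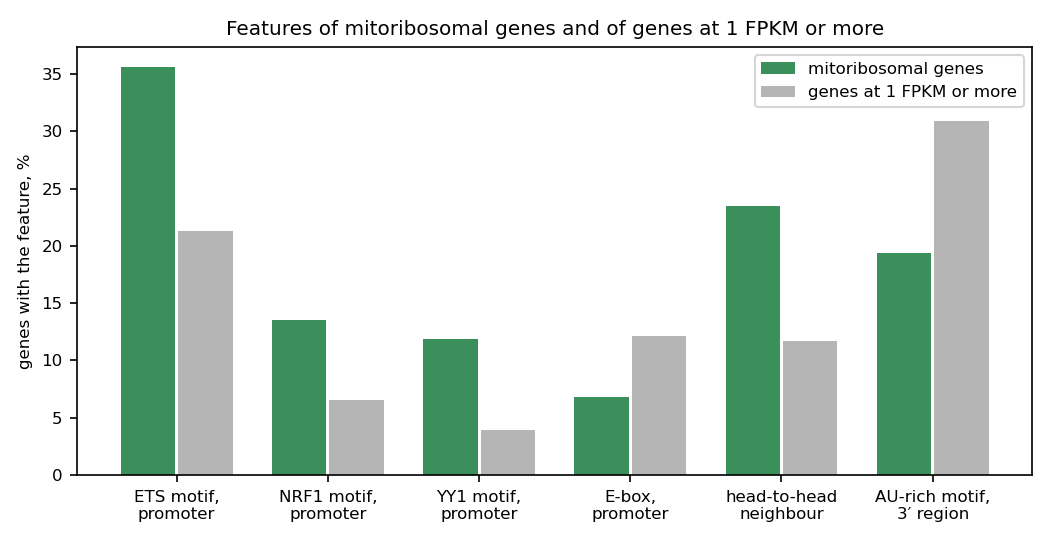
Share of mitochondrial ribosomal protein genes (green) and of genes with at least 1 FPKM (grey) that hold each promoter motif in a 300-base window, that have a head-to-head neighbour within 1000 bases, or that hold TATTTAT in the longest 3′ untranslated region. The members' shares are 35.6% (ETS), 13.6% (NRF1), 11.9% (YY1), 6.78% (E-box), 23.5% and 19.4%.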

How the data were processed

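RNA immunoprecipitation and total RNA libraries were sequenced. Per the submitters' processing notes, eXpress 1.1.1, Bowtie 1.1.2 and CASAVA 1.8.2 were used with mm9, each in a role not given in the sources. Per the file headers, the total read count and the uniquely mapped count of each gene model were deposited, and both were the same in every gene. An estimated count deposited by the authors beside them was equal to the total count. The authors also deposited FPKM with its bounds, on the effective length. One row that names no gene repeats the total of 22625281 counts and was left out. Intervals cover counting error only, and PCR duplicates cannot be recognised in the table.

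No column names a library, so all planned comparisons between groups were left out and no test was run. FPKM on the model length was recomputed from the counts. Evenness was computed on log2(FPKM + 1). GENCODE M21 matched all 68 members, and its regions, with the stop codon found directly before each, served for 3′ untranslated regions. Synonyms in RefSeq gave 3 further list genes. Of 76 listed members of the mitochondrial ribosome under the rule's names, 8 were not analysed here. Members' coordinates on mm9 are not in the table and are not given. Near-identical copies elsewhere in the genome may share reads with a member, which the table does not record.

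Genes were named by rank within each subunit (5 highest, 5 lowest), by the shift between lengths, by place in the ribosome, as the ends of each list and by the exceptions to the symbols. Members of the central protuberance, Mrpl50, Mrps2, Mrpl35, the list genes between the ends, the head-to-head examples and the sequences shown were chosen after their values were seen. This gene family and the lists were picked as subjects with earlier results of these data known, although the rule for members reads symbols only. Software was matplotlib 3.10.9, scipy 1.17.1, pandas 2.3.3 and numpy 2.4.6 under Python 3.11.15.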

Additional observations from a re-analysis of the deposited data

How the results depend on the processing

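No paired analysis was possible because nothing in the column names ties a value to a library, a group or a number, and for the same reason neither leaving out a replicate nor a replicate block was run. The choice of length moved most values. On the model length the medians were 39.6 FPKM (large subunit) and 35.6 (small), their ratio 1.11, the SDs of log2(FPKM + 1) 0.93 and 0.62, and the gap between SDs (large minus small) 0.31, against 0.11 as deposited. With models of at most 2000 nt the SDs were 0.73 and 0.75, and the gap turned to -0.0202. With both changes the medians were 42.3 and 39.2 FPKM, the ratio 1.08, the SDs 0.69 and 0.53, and the gap 0.16. The coefficient of variation in place of the SD also turned the gap, to -0.0945, while the Gini coefficient (0.0052) and the quartile ratio (0.23) kept its direction.

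With subunits assigned by place in the assembled ribosome, the SD of the small subunit was 0.79 and the gap 0.0904. With the 7 proteins under other symbols the SDs were 0.92 and 0.85 and the gap 0.0704. Without the highest and lowest member of each subunit they were 0.79 and 0.63, with a gap of 0.16. Without members whose exons overlap another coding gene, the small-subunit median was 30.1 FPKM, the SDs 0.85 and 0.76 and the gap 0.0893. With a pseudocount of 0.1 the SDs were 0.93 and 0.80 and the gap 0.13. The large-subunit median was the higher under every one of these settings. In the transcript nearest in length to the model, 4 members held TATTTAT in place of 13, with fewer genes matched (46 in place of 67). The rest of the 13 were among the members not matched. All 68 members remained above the threshold at 5 FPKM, on the model length and with at least 10 counts. The settings for overlapping exons, for models of at most 2000 nt and for the nearest transcript were chosen after seeing the data. With 1 profile, the spread between libraries is unknown, and the cause of each shift was not tested.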
